A study of Homo sapiens with 2 samples.

Results

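The regions described here are the open-chromatin regions that lie wholly inside 4 windows around centromeres (hg38). The windows are chromosome 5 from 45 to 51 Mb, chromosome 16 from 33 to 47 Mb, chromosome 17 from 21 to 28 Mb, and the 25 Mb of chromosome 1 that begin at 120 Mb. They number 323 of 122654 regions in the library of lactate-treated cells and 289 of 98404 in the library of untreated cells. Merged over both lists where they overlapped, they formed 350 of 130506 regions on chromosomes 1 to 22 and X. Members were chosen by position, in windows picked with their lactate over untreated ratios of summit pileup in view, so those ratios are descriptions and carry no test. The cells were CAL27, an established line from a squamous carcinoma of the tongue, and the assay was ATAC-seq, which reads out open DNA from the places where Tn5 transposase inserts adapters. The lactate library came from cells given 10 mM lactate for 24 h and holds 15401276 tags. The untreated library came from cells with no treatment and holds 18248413 tags. Each group has 1 library, so differences could not be checked against replicates, and ratios describe this pair of libraries, not the conditions.

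Human centromeres are built of long arrays of alpha satellite DNA. On both sides lies pericentromeric heterochromatin, which is rich in other satellite repeats and in segmental duplications, carries repressive histone marks and holds few active genes. Chromosomes 1 and 16 are known for large blocks of this heterochromatin beside the centromere. Because copies of a repeat or a duplicated gene can be nearly identical, reads from them often cannot be placed at 1 position, and tags that were placed may stand for a subset of the copies.

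Genes lie mostly toward the margins of the windows, and 6 of their promoters are shown as examples of sequence that was open there. They were picked by hand, and a region present in both lists covers each of them over all 250 bases before the start. Other promoters in the windows met this too, such as that of SHCBP1. SRGAP2C is a human-specific copy of a gene for neuronal migration. VPS35, of the retromer that recycles membrane proteins, and ORC6, of the complex that marks replication origins, stand back to back under 1 region. DNAJA2, a co-chaperone of heat shock proteins, had nearly equal summits of 48 lactate and 47 untreated tags before scaling. Per total tags its ratio was 1.21, with a counting interval of 0.792 to 1.85 that includes 1. TMEM11, a mitochondrial membrane protein, and MAP2K3, a kinase that activates p38, were higher in the lactate library before and after scaling. The sequences are RefSeq's on GRCh38.p14, written 5′ to 3′ on the gene's strand and ending at the base before the annotated start. Capitals mark GGGCGG (the GC box), the CCAAT box, CCGGAA (an ETS core) and TGANTCA (AP-1) on either strand.
SRGAP2C, chr1:121184725-121184974 (+ strand): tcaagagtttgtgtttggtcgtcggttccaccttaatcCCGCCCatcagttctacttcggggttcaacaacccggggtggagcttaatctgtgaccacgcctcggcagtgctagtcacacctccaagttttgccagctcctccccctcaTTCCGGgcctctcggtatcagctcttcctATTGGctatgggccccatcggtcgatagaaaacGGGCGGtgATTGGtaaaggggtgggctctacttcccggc
VPS35, chr16:46689179-46689428 (- strand): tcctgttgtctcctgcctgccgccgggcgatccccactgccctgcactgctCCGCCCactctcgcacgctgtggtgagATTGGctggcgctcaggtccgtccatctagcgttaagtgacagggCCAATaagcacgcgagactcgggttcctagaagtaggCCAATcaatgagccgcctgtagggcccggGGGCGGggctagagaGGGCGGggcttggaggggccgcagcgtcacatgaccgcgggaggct
ORC6, chr16:46689409-46689658 (+ strand): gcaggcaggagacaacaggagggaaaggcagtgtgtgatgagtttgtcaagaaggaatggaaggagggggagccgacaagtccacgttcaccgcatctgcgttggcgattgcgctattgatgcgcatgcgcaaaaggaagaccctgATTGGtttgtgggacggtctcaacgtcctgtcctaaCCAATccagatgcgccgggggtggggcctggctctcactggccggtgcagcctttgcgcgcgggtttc
DNAJA2, chr16:46973675-46973924 (- strand): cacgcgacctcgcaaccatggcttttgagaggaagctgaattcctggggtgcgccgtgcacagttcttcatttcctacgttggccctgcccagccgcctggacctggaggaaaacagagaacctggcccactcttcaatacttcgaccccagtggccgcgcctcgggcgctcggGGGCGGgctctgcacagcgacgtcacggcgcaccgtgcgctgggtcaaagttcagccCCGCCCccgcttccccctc
TMEM11, chr17:21214162-21214411 (- strand): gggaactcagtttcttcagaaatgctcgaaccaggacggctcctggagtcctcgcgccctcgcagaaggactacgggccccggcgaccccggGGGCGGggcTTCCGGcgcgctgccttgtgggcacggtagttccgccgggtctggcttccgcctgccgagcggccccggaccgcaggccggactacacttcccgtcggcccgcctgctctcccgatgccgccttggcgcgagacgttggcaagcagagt
MAP2K3, chr17:21284461-21284710 (+ strand): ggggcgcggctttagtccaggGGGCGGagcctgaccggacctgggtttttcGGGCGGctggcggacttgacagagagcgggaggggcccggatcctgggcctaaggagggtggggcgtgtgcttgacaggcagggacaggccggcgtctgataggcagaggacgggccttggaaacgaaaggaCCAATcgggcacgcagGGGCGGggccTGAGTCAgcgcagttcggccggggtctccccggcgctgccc
The GC box was held by 53.7% of the same stretches of all 22156 promoter entries of protein-coding genes, the CCAAT box by 32.7%, the ETS core by 17.9% and the AP-1 motif by 5.36%. Of the 49 entries inside the windows, 23 held the GC box, 13 the CCAAT box, 4 the ETS core and 4 the AP-1 motif. Overlapping matches were counted separately. The entries cover 33 of the 44 protein-coding genes inside the windows, some with several starts. The sequence of the regions farther from genes was not used here.

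The members were sparse. They lay at 6.21 per Mb in the lactate list and 5.56 per Mb in the untreated list, where the rest of the same 4 chromosomes had 49.8 and 40.0 per Mb. Counting error alone spans 5.55 to 6.93 and 4.93 to 6.24 per Mb in the windows. Most of the 52 Mb held no member. How much of it is sequence on which reads can be placed was not determined. Densities are therefore per Mb of coordinates, and an empty stretch need not be closed chromatin. Only 92 of 520 bins of 100 kb held a member, and the 10 fullest bins held 107 of the 350. Stretches of at least 1 Mb without a region in either list numbered 7 and covered 38.5 Mb, whereas the rest of these chromosomes had 1 such stretch, of 1.06 Mb. The longest measured 18.0 Mb on chromosome 1 and 10.2 Mb on chromosome 16. Chromosome 17 was the densest window, with 17.4 and 14.3 regions per Mb in the lactate and the untreated list, and chromosome 16 among the emptiest, with 4.0 and 3.86 per Mb.

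Where members were present, they lay about as close together as elsewhere. In the lactate list 46.1% of neighbouring members were at most 10 kb apart and 12.2% at most 1 kb, against 47.5% and 9.60% in the rest. In the untreated list the shares were 44.2% and 11.9%, against 40.9% and 9.90% in the rest. The chromosome 5 window stood apart, with 23.1% of lactate and 25.6% of untreated neighbours within 10 kb.

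The median width of members was 344 bp in the lactate list and 399 bp in the untreated list, and that of the rest 330 and 350 bp. Both intervals include the value of the rest, at 313 to 393 bp in the lactate list and 339 to 446 bp in the untreated list. Chromosome 1 members had a median of 388 bp in the lactate and 461 bp in the untreated list, against 330 and 351 bp in the rest of chromosome 1. On chromosomes 16 and 17 the medians were below those of the rest in both lists. Several summits were called in 18.9% of lactate and 25.6% of untreated members, against 16.5% and 22.8% in the rest. The intervals of the member shares, 14.76 to 23.59% and 20.67 to 31.05%, include the shares of the rest. Narrow regions, with 1 summit and a width close to 220 bp, made up 11.1% and 11.4% of members, against 13.1% and 14.2% in the rest. They made up 30.0% in both lists in the chromosome 5 window. One member was the widest region of the whole untreated list, at 2744 bp on chromosome 16 from 46398499 to 46401242. Its lactate counterpart measured 2371 bp and was the third widest of 122399 regions.

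Of the 350 merged members, 101 overlapped a protein-coding gene, 70 another RefSeq entry and 179 none. Shared regions, present in both lists, numbered 253. Those in the lactate list alone numbered 63, or 18.0%, where the rest of the 4 chromosomes had 25.6% and all chromosomes 26%. Those in the untreated list alone numbered 34, or 9.71%, where the rest had 6.95% and all chromosomes 7.48%. Library-only members were weak. The median summit pileup, the number of tags covering the summit, was 11 in the lactate-only and 10 in the untreated-only members. The strongest lactate-only member had 68 tags and lay 4387 bp from MAP2K3, and the strongest untreated-only member had 27 tags, on chromosome 1 from 143263376 to 143263757.

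Summit heights were compared as the lactate over untreated ratio of pileup per total tags. In the rest of the 4 chromosomes its median over 19630 shared regions was 1.67, a log2 shift of 0.74, so a region with a ratio between 1 and 1.67 is higher in the lactate library by total tags and lower relative to the typical region. The 253 shared members had a median of 1.36 (95% interval 1.23 to 1.41), with a range of 0.362 to 3.64. The ratio was below 1 in 69 members (27.3%), against 9.99% of shared regions in the rest and 11.3% over all chromosomes. Its counting interval lay wholly below 1 in 27 members (10.7%), against 0.199% in the rest and 0.256% over all chromosomes. The interval lay wholly above 1 in 68 members (26.9%), against 47.1% and 44.4%. All intervals of counts, single ratios and summed tags cover counting error only. Tags are not independent molecules, and summits were picked for their height. Intervals of medians reflect the spread over regions taken as independent, although regions cluster.

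**Figure D1:**
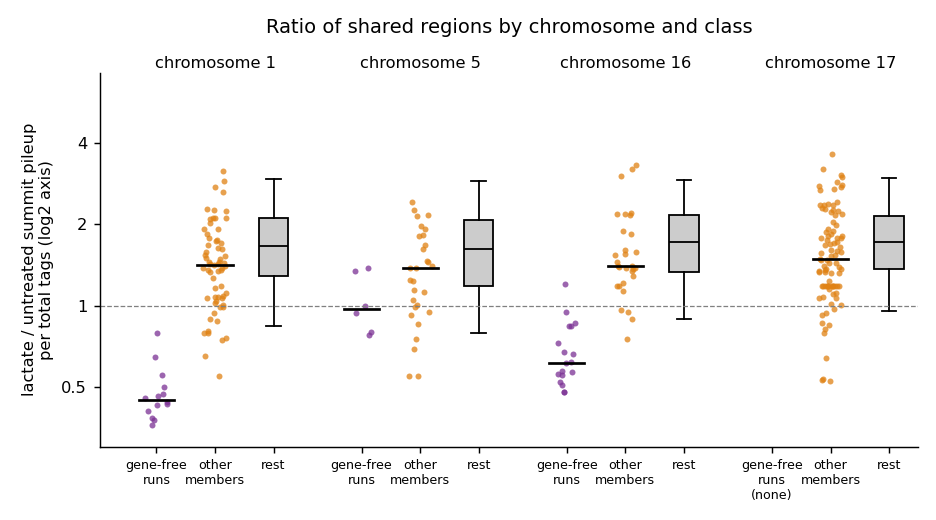
Lactate over untreated ratio of summit pileup per total tags (log2 axis) of shared regions on chromosomes 1, 5, 16 and 17: points are members in gene-free runs and other members, black lines their medians, and grey boxes the rest of each chromosome (quartiles, whiskers at 5 and 95%). The gene-free runs lie at medians of 0.446, 0.969 and 0.615 on chromosomes 1, 5 and 16, and the other members at 1.38 to 1.49.

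Of the 69 members below 1, 34 lay in 5 short runs far from genes. Runs of at least 5 merged regions at gaps of at most 10 kb, more than 25 kb from any RefSeq entry, were picked out after the values had been seen. They held 43 merged regions, of which 38 were shared, 5 untreated-only and 0 lactate-only. Their shared regions had a median ratio of 0.569 (0.50 to 0.729). The ratio was below 1 in 34 of 38, with the interval wholly below 1 in 23 and wholly above in 0. All 38 lay below the median of the rest. The 215 shared members outside the runs had a median of 1.42 (1.37 to 1.52), and 35 of them (16.3%) were below 1.

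The first run on chromosome 1, from 143184672 to 143240438, held 13 regions and stood at the edge of the 18.0 Mb empty stretch. Its 9 shared regions had summits of 7 to 70 tags in the lactate library and 18 to 129 in the untreated library. The summed tags were 201 and 496, a ratio of 0.480 (0.406 to 0.567), and all 9 ratios were below 1. Its region from 143212957 to 143213449 had 33 tags in the lactate library and 102 in the untreated library (ratio 0.383, interval 0.251 to 0.573), and that from 143232674 to 143233423 had 14 and 44 (0.377, 0.191 to 0.701). The second run followed after 12404 bp, from 143252843 to 143264880. It held 6 regions, and its 5 shared regions summed to 71 lactate and 169 untreated tags (0.498, 0.372 to 0.661). Both runs were lower in the lactate library throughout, including the lowest ratio of any shared member, 0.362, with 11 and 36 tags.

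On the other side of the same empty stretch stood an isolated pair of regions. The larger, on chromosome 1 from 125178818 to 125180768, had 160 tags in the lactate library and 346 in the untreated library (0.548, 0.451 to 0.663) and 4 summits in each. Its neighbour from 125182441 to 125182837 had 44 and 70 tags (0.745, 0.499 to 1.10). No RefSeq entry lay within 3606930 bp of the pair.

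On chromosome 16 the run from 46380754 to 46401649 began where the 10.2 Mb empty stretch ended. Its 7 regions, all shared, summed to 611 lactate and 1305 untreated tags (0.555, 0.503 to 0.611). The strongest, from 46389634 to 46390942, had 168 tags in the lactate library and 381 in the untreated library (0.523, 0.433 to 0.628). The next, from 46394469 to 46395082, had 104 and 222 tags (0.555, 0.435 to 0.704). The lowest ratio of the run was 0.478 (0.369 to 0.615), at 46387603 to 46388132, and the widest region, described above, had 103 and 214 tags (0.570, 0.446 to 0.725). The first region, with 12 and 15 tags, was the only one whose interval reached 1.

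The other run on chromosome 16, from 34572511 to 34595857, ended at the edge of an empty stretch of 1.01 Mb. Its 11 shared regions summed to 442 lactate and 742 untreated tags (0.706, 0.626 to 0.795), and 10 were below 1. The exception had 59 and 58 tags (1.20, 0.825 to 1.76). The lowest, from 34594867 to 34595857, had 19 and 47 tags (0.479, 0.266 to 0.832).

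The chromosome 5 run, from 49657681 to 49667418, was close to equal in both libraries. Its 6 shared regions summed to 649 lactate and 816 untreated tags (0.942, 0.849 to 1.05), and 3 were below 1. Its strongest region, from 49659396 to 49660038, had 207 tags in the lactate library and 245 in the untreated library (1.0, 0.828 to 1.21). Its neighbour from 49658190 to 49659062 had 148 and 220 (0.797, 0.643 to 0.986). A pair near it, at the edge of an empty stretch of 3.37 Mb, had 154 and 185 tags (0.986, 0.791 to 1.23) and 39 and 84 tags (0.550, 0.366 to 0.813). Without chromosome 5 the median over the runs was 0.554.

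**Figure D2:**
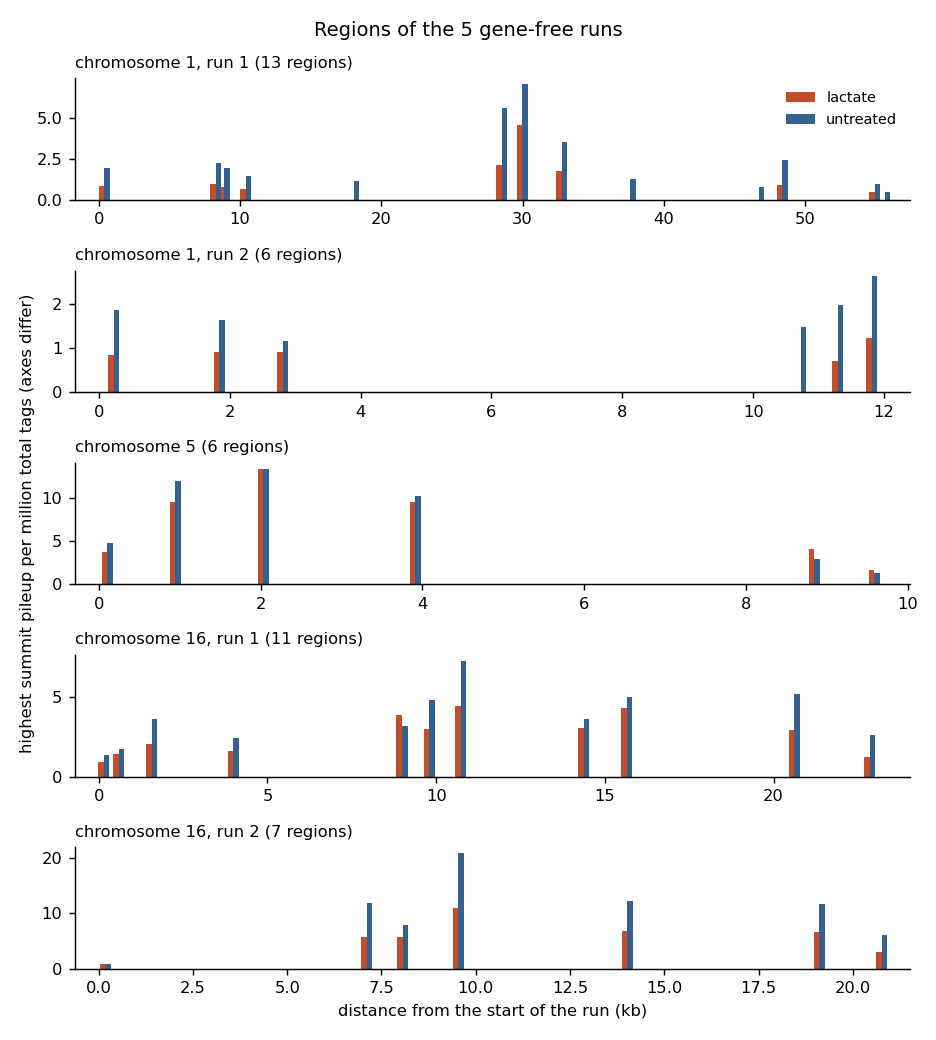
Highest summit pileup per 1000000 total tags (vertical axes differ) of each merged region in the 5 gene-free runs, by distance from the start of the run (kb), lactate bars left and untreated bars right. Untreated bars are taller in all but 1 region of the chromosome 1 and 16 runs, while the chromosome 5 bars are close in height, with 13.4 in both libraries at the strongest region.

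Chromosome 17 had no such run. Its lowest ratios came from a region at 26603578 to 26604629, with 39 lactate and 88 untreated tags (0.525, 0.351 to 0.774), and one at 26619200 to 26620238, with 31 and 69 (0.532, 0.337 to 0.825). Summed over all summits the second came to 0.962. The nearest RefSeq entry lay 377063 and 361454 bp away.

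In the runs the local background was lower in the lactate library together with the summit. The background, the tags that the peak caller expected at a summit from its surroundings, had a median of 6.63 tags in the lactate library and 13.9 in the untreated library over the 38 shared regions, a ratio per total tags of 0.496. Fold enrichment, summit over background, had a median of 4.55 in the lactate library and 4.65 in the untreated library, and its median ratio was 1.01. By run, the median fold ratio was 0.775 and 0.878 on chromosome 1, 1.05 in both runs of chromosome 16 and 1.09 on chromosome 5. In the rest of the 4 chromosomes the background ratio was 1.11 and the fold ratio 1.40. Without a control, the background was drawn from the same library's tags in the 10000 bp around a summit. These include the tags of the region itself and of close neighbours, so background and fold ratios are not independent of the summit ratio. In the chromosome 16 run that begins at 46380754, 5 of the 7 untreated backgrounds, from 91.0 to 60.9 tags, were the second to the sixth highest of all 98152 untreated regions, and the lactate background reached 37.6 tags there. Of regions with an untreated background of at least 10 tags, the 20 in the runs had a median ratio of 0.615, the 11 other members 1.82 (0.550 to 2.39) and the 783 in the rest 1.83. Of those 11, 4 were below 1 (36.4%), the isolated pairs on chromosomes 1 and 5 described above, against 1.41% of the 783. Whether copy number, placement of repeat reads or accessibility differed between the libraries was not tested.

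**Figure D3:**
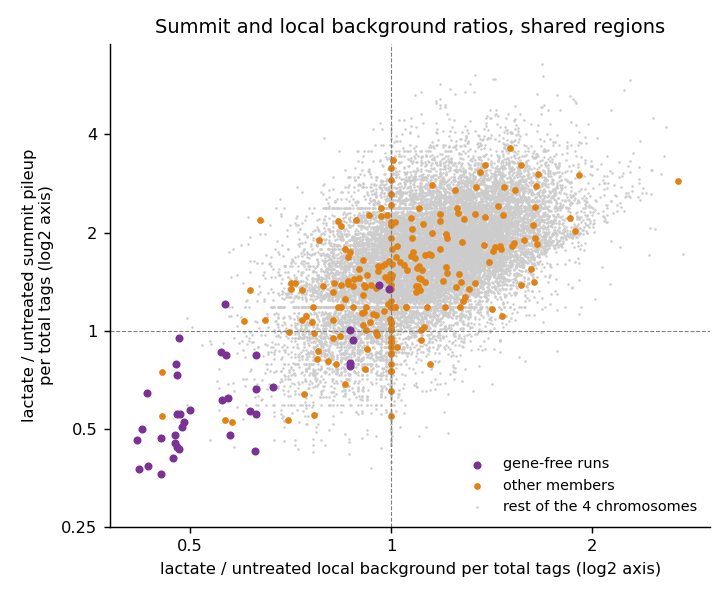
Lactate over untreated ratio of summit pileup (vertical, log2) against that of local background (horizontal, log2), both per total tags, for shared regions in gene-free runs, other members and the rest of the 4 chromosomes. The runs sit low on both axes, with medians of 0.569 and 0.496, and the column of points at 1 holds regions where both libraries had the genome-wide background.

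The same definition of a run applied outside the windows gave 17 runs with 102 merged regions on the rest of the 4 chromosomes. Their 70 shared regions had a median ratio of 1.66 (1.51 to 1.84), 6 of them were below 1, and the run medians spanned 0.935 to 2.18. The run at 0.935 lay on chromosome 5 from 51651980 to 51664262, beyond the window's end at 51 Mb. Of its 5 shared regions 3 were below 1, and its summed ratio was 1.34 (1.10 to 1.63). Run medians inside the windows were 0.434, 0.469, 0.555, 0.664 and 0.969. Within the windows, distance from genes went with the ratio. Shared members within 100 kb of a protein-coding gene had a median of 1.49 (n = 180), and those farther away but outside the runs 1.19 (n = 35).

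Of 44 protein-coding genes inside the windows, 23 had a region in both lists within 1 kb of either annotated end, 1 in the lactate list alone (LINC02798, 8 tags), 1 in the untreated list alone (NOS2, inducible nitric oxide synthase, 12 tags) and 19 (43.2%) in neither, where the rest had 27.8% in neither. At annotated starts, counted for 33 genes, 33.3% had no region, against 27.8% in the rest, and these shares were not tested for a difference. The median gene-end ratio was 1.64, against 1.86 in the rest, and 1 of 23 was below 1. Genes without a region included several TP53TG3 and PPIAL4 copies, which are multigene families.

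On chromosome 16 the open genes lay at the long-arm end of the window. GPT2, a mitochondrial alanine aminotransferase, had 181 tags at its end in the lactate library and 97 in the untreated library (ratio 2.21, 1.72 to 2.86), though its ratio was 1.30 with the pileups of all its summits summed. C16orf87 had 153 and 60 (3.02, 2.23 to 4.14), and the shared VPS35 and ORC6 region had 153 and 129 (1.41, 1.11 to 1.79). SHCBP1, a protein of dividing cells, had 69 and 51 (1.60, 1.10 to 2.35), and DNAJA2 had 48 and 47 (1.21, 0.792 to 1.85). All 5 regions were above 1 by total tags, though the DNAJA2 interval included 1, and VPS35 with ORC6, SHCBP1 and DNAJA2 were below the median of the rest. The highest ratios among well-covered members of this window came from a 221 bp region inside MYLK3, a cardiac myosin kinase, with 98 and 36 tags (3.23, 2.18 to 4.87), and from one of 219 bp at 33731154 to 33731372, with 45 and 16 (3.33, 1.85 to 6.32).

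On chromosome 17 the named genes on the short-arm side of the window were higher in the lactate library. The median gene-end ratio in the rest was itself 1.86. TMEM11 had 112 tags in the lactate library and 48 in the untreated library (2.77, 1.96 to 3.96), MAP2K3 115 and 57 at its first end (2.39, 1.73 to 3.34), and DHRS7B, a dehydrogenase of the peroxisome, 91 and 56 (1.93, 1.37 to 2.74). Summed over all summits the ratios were 1.87 for TMEM11, 1.31 for MAP2K3 and 1.59 for DHRS7B. A further region inside MAP2K3, from 21287397 to 21288434, had 150 and 64 (2.78, 2.06 to 3.78). The long-arm side held KSR1, a scaffold of the RAS pathway, with 31 and 12 tags at its end (3.06, 1.53 to 6.55) and 18 merged regions over its 170 kb, of which 13 were shared with a median ratio of 1.49. It also held WSB1 (35 and 26 tags, 1.60, 0.933 to 2.76), LGALS9, a galectin (42 and 28, 1.78, 1.08 to 2.98), and LYRM9 (35 and 36, 1.15, 0.702 to 1.89). The highest ratio of any shared member, 3.64 (2.33 to 5.85), came from 83 and 27 tags at 27384187 to 27384853, 27854 bp from the nearest RefSeq entry.

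The strongest member of all stood alone on chromosome 17 from 22521267 to 22521560, 558 bp from MTCYBP13, a nuclear copy of the mitochondrial cytochrome b gene. It had 535 tags in the lactate library and 220 in the untreated library (2.88, 2.46 to 3.39), and folds of 43.7 and 37.1. Its background was 11.3 tags in the lactate library and 4.96 in the untreated library, a ratio of 2.69. Reads of mitochondrial DNA could not be told apart here from reads of nuclear copies, and their part in this value was not tested. Unlike in the gene-free runs, summit and background were both higher in the lactate library. As the background includes the region's own tags, its ratio is not independent of the summit ratio.

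On chromosome 1 the strong gene-end regions belonged to duplicated families. The region between FAM72B and SRGAP2C had 132 tags in the lactate library and 89 in the untreated library (1.76, 1.33 to 2.33), or a ratio of 1.09 summed over all summits, while FAM72C, across the centromere, had 11 and 20 (0.652, 0.282 to 1.43). SEC22B, of vesicle transport, had 43 and 24 (2.12, 1.26 to 3.66), NBPF15 had 36 and 26 (1.64, 0.964 to 2.83), the common end of NBPF26 and NOTCH2NLR 31 and 27 (1.36, 0.786 to 2.37, and 0.816 summed over all summits), and NBPF8 22 and 25 (1.04, 0.560 to 1.93). These copies are nearly identical in places, so how tags were divided among them is uncertain.

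The tallest gene-end regions on chromosome 1 were those of RNVU1-15 and RNVU1-19, variant U1 small nuclear RNA genes whose products are relatives of the RNA that recognises splice donor sites. RNVU1-15 had 222 tags in the lactate library and 130 in the untreated library (2.02, 1.62 to 2.53), RNVU1-19 171 and 105 (1.93, 1.51 to 2.49), and RNVU1-2A 91 and 51 (2.11, 1.48 to 3.04). RNVU1-18 had 14 and 12. A region beside RNVU1-28 had 56 and 24 (2.77, 1.69 to 4.66), but the region over that gene, from 144560688 to 144561164, was untreated-only with 15 tags. A region beside RNVU1-26 had 24 and 17. Of 9 small nuclear RNA genes in the windows, 7 had a region in both lists over the gene or within 1 kb of it, at a median ratio of 1.93, against 26 of 57 and 1.81 in the rest. The lowest ratio of the 7 was at LOC124904631, with 49 lactate and 50 untreated tags (1.16, 0.767 to 1.76). RNVU1-15 and RNVU1-19 had high backgrounds, 26.3 and 20.4 tags in the lactate library against 16.5 and 14.7 in the untreated library. Transfer RNA genes mostly lacked a region, with 3 of 10 open in both lists against 107 of 165 in the rest. TRN-GTT3-1 had 106 and 91 tags (1.38, 1.03 to 1.85), TRG-CCC6-1 43 and 33, TRN-GTT7-1 44 and 37, and TRV-CAC5-1 had 19 tags in the untreated list alone. Both families are multicopy, so these values are uncertain too.

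**Figure D4:**
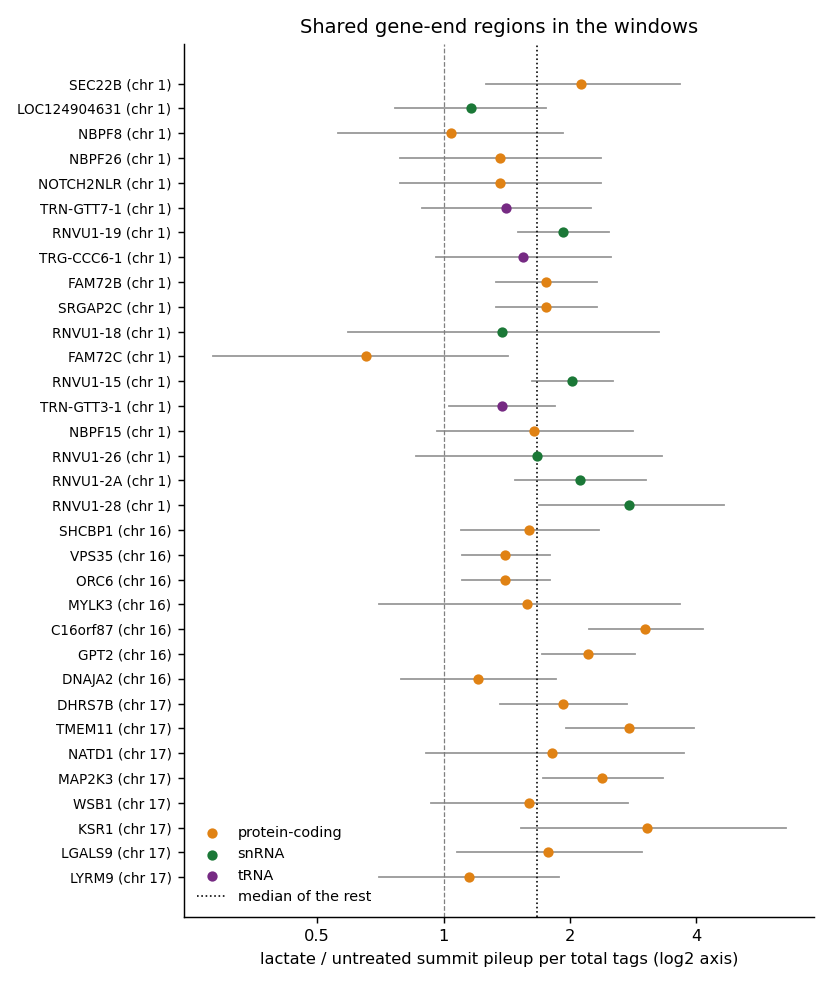
Lactate over untreated ratio of summit pileup per total tags (log2 axis) of the region over or within 1 kb of each gene end open in both lists, with 95% counting intervals as grey lines, for protein-coding, snRNA and tRNA genes in the windows. FAM72C at 0.652 is the only point below 1, and C16orf87 and KSR1, at 3.02 and 3.06, are the farthest above the dotted median of the rest, 1.67.

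In the chromosome 5 window no protein-coding gene had a region in both lists within 1 kb of its outermost annotated ends. EMB, a cell adhesion protein, held 1 shared region, at a ratio of 1.68. PARP8, of the ADP-ribosyltransferase family, held 13 merged regions, 8 shared at a median of 1.31, with 2 lactate-only and 3 untreated-only. One of the shared regions, from 50667314 to 50668201, lay at an annotated start inside the gene. It had 21 tags in the lactate library and 17 in the untreated library (1.46, 0.736 to 2.955). The strongest library-only members of this window were a lactate-only region with 25 tags at 50962911 to 50963268 and an untreated-only region with 13 tags inside PARP8.

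Of the 4 narrow members with most tags, 3 lay below the median of the rest. The region at 33764763 to 33764988 on chromosome 16 had 209 tags in the lactate library and 185 in the untreated library (1.34, 1.09 to 1.64). A region inside SHCBP1, from 46582313 to 46582532, had 144 and 111 (ratio 1.54). On chromosome 17 that at 27091688 to 27091909 had 146 and 124 (1.39, 1.09 to 1.79), and that at 27063655 to 27063873 had 144 and 90 (1.90, 1.45 to 2.49). The 25 narrow shared members had a median of 1.25, against 1.55 for 2388 narrow shared regions in the rest. At the window borders, the first and last members had ratios of 0.754 to 3.01 where shared, and their nearest neighbours outside 0.790 to 2.77. As a check of the cell type, 10 of 12 squamous epithelial marker genes had a gene-end region in both lists, TP63 and KRT14 being the exceptions, against 4 of 6 fibroblast, 3 of 5 leukocyte and 0 of 4 endothelial markers. Of all protein-coding genes in the rest of the 4 chromosomes, 65.8% had one.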

How the data were processed

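Nuclei were cut with Tn5, per the labels' protocols. For build and tools, the submitters' processing notes list hg38, BWA 0.7.12, fastp 0.20.0 and MACS2 2.1.0, but the caller in the file headers is MACS 2.2.7.1. Per the file headers, the authors called regions in each library on its own, without a control, from uniquely placed and deduplicated tags, at a q-value threshold of 0.05, with tags extended to 200 bp. Unique placement thins the coverage of repeats. The deposited pileup is an unscaled coverage signal at the summit. The deposited fold enrichment is the ratio of pileup to local background, each with 1 added, from which the background was recovered. Positions were deposited in bp.

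Summits of 1 region were reduced to the highest. Regions of both lists overlapping by at least 1 bp were merged. Ratios divide pileup by the total tags in the headers. Intervals of counts, shares and ratios of tags are exact 95% Poisson, binomial or conditional Poisson intervals. Those of medians are 95% order-statistic intervals, from the ranked values of the regions, taken as independent. The windows, lists and runs were chosen with earlier results of these data known. For each window the rule names the 3 shared regions with most tags, the 2 highest and 2 lowest ratios from at least 50 tags, the strongest library-only region per library, and up to 5 genes with a shared gene-end region. RefSeq entries of GRCh38.p14 gave annotations, without strand for gene ends. FAM72C, NBPF8, DNAJA2, KSR1, WSB1, MYLK3, EMB, PARP8 and the small RNA genes were named beyond that rule, after their values had been seen. The regions of 1 gene that the rule names are not reported here. Python 3.11.15, pandas 2.3.3 and scipy 1.17.1 were used. Alternatives changed the overlap, the gap, the p filter, the scaling, the summits (summed instead of highest), the use of fold enrichment, the narrow regions and the chromosomes used.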

Additional observations from a re-analysis of the deposited data

How the results depend on the processing

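No paired analysis was possible because only 1 lactate and 1 untreated library were analysed here. Of 61 alternative values for the summary results, 47 stayed within the interval or within 1.5 times the count, 11 moved and 3 changed side of 1. Of these 3, centring gave 2 and fold enrichment 1. Centred on the median of the rest, the median ratio became 0.813 in the windows and 0.850 outside the gene-free runs, both now below 1, and 0.340 in the runs. With fold enrichment in place of pileup it became 1.01 in the runs and 1.29 outside them. Without chromosome 16 the runs had 0.484. The share of neighbours within the gap was 12.2% (lactate) and 11.9% (untreated) at 1 kb, 81.5% and 78.2% at 50 kb, and 39.1% and 36.3% with a minus log10 p of at least 7. With a reciprocal overlap of 50%, 70.6% of lactate and 78.9% of untreated members were overlapped, against 80.5% and 88.2% at 1 bp. Of 129 values for single regions, 15 changed side of 1, of which 8 belong to regions whose main interval excludes 1. Of these 8, those with fold enrichment were the chromosome 1 region at 125178818 (1.16) and the chromosome 16 regions at 46389634 (1.05) and 46394469 (1.14). Those after centring were 33764763 on chromosome 16 (0.800), 27091688 on chromosome 17 (0.834), the VPS35 and ORC6 region (0.840, counted for both genes) and SHCBP1 (0.958). The others were NBPF26 (0.816 summed over summits, 0.813 centred), NBPF15 (0.981 centred), LYRM9 (0.689 centred), and on chromosome 5 the regions at 49659396 (0.681 summed, 0.599 centred) and 49601403 (1.26 with fold enrichment). Runs of at least 2 or 3 regions, or over 100 kb from coding genes, were chosen after seeing the data and moved the run median within its interval. Regions of about 10 tags have intervals too wide to show a ratio.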

Other observations

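Elsewhere in the genome the same definition of a gene-free run gave 83 runs on the other chromosomes, of which 8 had a median ratio below 1. The one with most tags, on chromosome 4 from 49092646 to 49121215, held 9 regions with 201 lactate and 304 untreated tags at its shared summits (summed ratio 0.783, 0.652 to 0.939). A run on chromosome 10 from 41875297 to 41897073 had a summed ratio of 0.908 (0.737 to 1.12). The lowest run median, 0.646, was on chromosome 20 from 31052651 to 31074518. Of its 6 regions, 4 were untreated-only and 1 was shared, with 6 lactate and 11 untreated tags. The distance of these runs from centromeres was not measured.

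Regions on unplaced contigs, which took no part in the comparisons above, numbered 159 on 43 contigs in the lactate list and 160 on 49 contigs in the untreated list. Of the untreated ones, 116 were overlapped by a lactate region, at a median ratio of 1.02, and 55 of them (47.4%) were below 1.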
